A study of Homo sapiens with 2 samples.

Results

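The 5 genes that encode the subunits of the transcription factor NF-kB, namely NFKB1, NFKB2, REL, RELA and RELB, were examined for N6-methyladenosine (m6A) in the messenger RNA of GM12878 cells. They were chosen by name and make up 5 of the 47352 gene names in the deposited table. GM12878 is a human lymphoblastoid line, that is, B cells transformed with Epstein-Barr virus, and it is the source of both libraries. Total RNA of cells grown in 15% serum was fragmented, and 1 library was made from the unselected fragments (the input) and 1 from the fragments recovered with an m6A antibody (the IP). The libraries differ only in that selection as far as the labels say, and with 1 library of each kind no difference below has a replicate check or a p-value.

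A source label names mouse embryonic stem cells, whereas the organism, cell type and cell line labels name human GM12878. All 6 B cell markers checked were covered in the input (9.93 to 775 in units of scaled coverage, explained below). Of 4 pluripotency markers none passed a mean of 1 (0.00782 to 0.153). Among markers of other blood cells, CD3E stood at 1.52 and the other T cell, myeloid and erythroid markers at 0.308 or lower.

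NF-kB proteins act as dimers. The 5 subunits share a Rel homology region that binds DNA, dimerises and carries the nuclear localisation signal. RELA, REL and RELB also have a transactivation domain, whereas NFKB1 and NFKB2 encode precursors whose ankyrin repeats act as inhibitors until processing releases the mature DNA-binding subunit. RELA and REL paired with the NFKB1 product serve the canonical pathway, and RELB paired with the NFKB2 product serves the non-canonical pathway. In B cells transformed by Epstein-Barr virus, the viral protein LMP1 is known to keep both pathways active. m6A is placed on mRNA by a methyltransferase complex, often in long exons and around the stop codon, and is known for its part in mRNA decay.

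The element that NF-kB proteins recognise was looked for at the starts of the genes themselves. RefSeq promoter windows (GRCh38.p14, 300 bases from 250 before the start) were listed for 4 of the 5 genes. The NF-kB consensus motif, searched on both strands, was present in 1 of 2 windows of NFKB1, 2 of 3 of NFKB2, the 1 of REL and 0 of 2 of RELA. It occurred in 5.91% of all 35116 such windows. The stretches below are given 5′ to 3′ on the strand of the gene to show this element, with the motif in capitals. Overlapping matches in the REL stretch and in the first NFKB2 stretch, and 2 further NFKB2 matches, are not shown.
NFKB1, chr4:102501300-102501329, plus strand: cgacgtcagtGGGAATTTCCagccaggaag
REL, chr2:60881517-60881546, plus strand: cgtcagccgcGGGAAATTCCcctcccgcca
NFKB2, chr10:102394461-102394490, plus strand: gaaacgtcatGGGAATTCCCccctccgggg
NFKB2, chr10:102395674-102395703, plus strand: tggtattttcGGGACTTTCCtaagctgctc
Relative to the annotated transcript start, the motif begins at position -49 in NFKB1, at -47 in REL, and at -107 and -21 of different starts of NFKB2. A match is a description of the sequence. The libraries measure RNA, and binding at these sites was not measured.

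All 5 subunits were expressed, and their order differed between the libraries. Values are scaled coverage, the authors' mean read depth per base in a window of 100 nt. They are averaged here over the windows of the longest transcript listing of a gene, so that they do not grow with length. Last windows of exons can be nearly empty, which lowers such a mean. In NFKB1 exon 23, for example, the input was 33.1 in the first window and 0.40 in the last. NFKB1 and NFKB2 have 24 and 22 exons and the other members 11 each, and the effect of this on the order was not tested. Intervals in brackets are exact Poisson 95% intervals from the read numbers that the coverage implies and cover counting error only. Coverage is an average over all cells, so the number of expressing cells and the RNA per cell cannot be told apart.

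NFKB2, which encodes the precursor of p52, had the highest input level at 17.8 (17.5 to 18.2). RELA, the widely expressed transactivating subunit, followed at 10.4 (10.1 to 10.7) and NFKB1, which encodes the precursor of p50, at 10.1 (9.86 to 10.3). The intervals of RELA and NFKB1 overlap, so their order is not resolved by counting. RELB stood at 4.63 (4.42 to 4.84) and REL, the subunit best known from lymphoid cells, was lowest at 3.53 (3.35 to 3.70). The intervals of these last genes overlap neither each other nor the 3 above them. Among 10756 measured genes, meaning those with a mean input of at least 1 and at least 2 windows, the members ranged from percentile 47.6 (REL) to 89.5 (NFKB2), and the median of measured genes was 3.75.

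In the IP the order was another one. RELA came first at 18.0 (17.5 to 18.5), then NFKB2 at 15.1 (14.7 to 15.5), REL at 13.2 (12.8 to 13.6), NFKB1 at 12.05 (11.7 to 12.4) and RELB at 5.79 (5.51 to 6.09). REL, lowest of the 5 in the input, thus stood above NFKB1 and RELB in the IP. Its ratio of IP to input over the whole transcript was 3.75, against 1.73 in RELA, 1.25 in RELB, 1.19 in NFKB1 and 0.847 in NFKB2. The libraries were scaled separately, so a ratio of 1 has no absolute meaning. The median ratio of measured genes was 1.36, which REL and RELA exceeded and the other 3 did not.

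**Figure D1:**
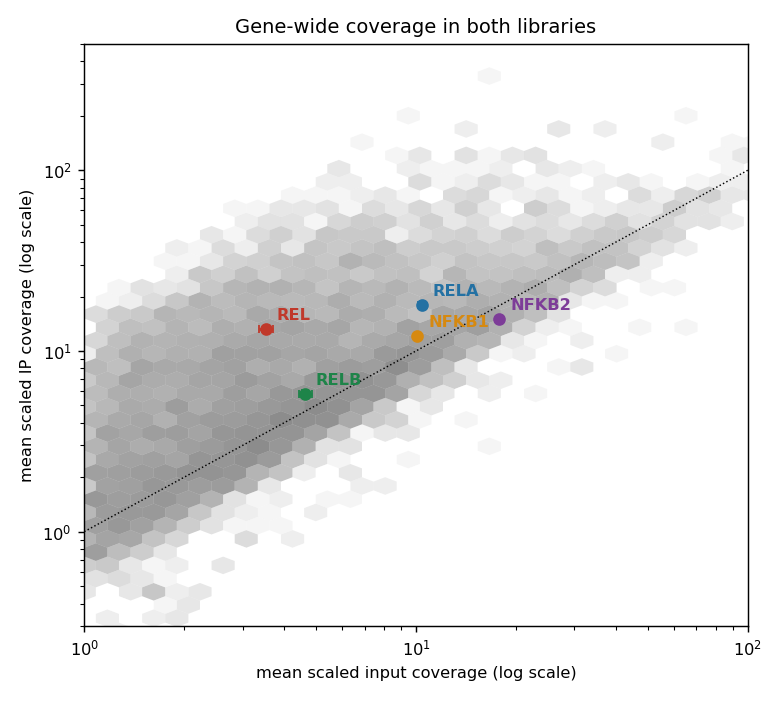
Mean scaled coverage of each subunit in the input (horizontal, log scale) and in the IP (vertical, log scale), with exact Poisson 95% intervals as bars, over the density of measured genes in grey within the plotted range. The dotted line marks equal values, and REL at 3.53 and 13.2 lies farthest above it while NFKB2 at 17.8 and 15.1 lies below it.

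Local enrichment was found in 3 of the 5 transcripts. The deposited window score is the log2 of IP over the gene's IP median, minus the same quantity for the input. Each of the 4 numbers is raised by 1 first. A window at a score of 2 or more (4-fold) counts as enriched, and a run of at least 2 such windows, which start every 50 nt, counts as a region. REL, RELA and NFKB1 had 1 region each, and NFKB2 and RELB had none. The share with a region was 44.2% among all measured genes and 55.3% among the 3502 measured genes of 51 to 93 windows, the range that the 5 members span. A count of 3 of 5 lies near these shares and is no result about the family. Without centring on the gene median, NFKB1 lost its region. REL alone passed at a score of 3 and RELA alone passed when runs of at least 4 windows were asked for. Among all measured genes 26.01% passed at a score of 3 and 30.95% passed for runs of at least 4 windows. Without centring 45.49% passed.

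The gene-level score is the highest mean of 2 consecutive windows. It was 3.52 in REL (3.28 to 3.77), 2.56 in RELA (2.31 to 2.81), 2.55 in NFKB1 (2.42 to 2.69), 1.42 in NFKB2 (1.13 to 1.71) and 1.28 in RELB (0.98 to 1.59). The bounds combine the opposite ends of the Poisson intervals of both libraries with the gene medians held fixed. By these bounds REL stood above the other 4, RELA and NFKB1 could not be ordered, and neither could NFKB2 and RELB, which both lay below the other 3. The median over the 5 genes was 2.55 against 1.81 over all measured genes and 2.29 over those of 51 to 93 windows. REL lay at percentile 77.1 of the genes in that length range, RELA at 55.4, NFKB1 at 55.2, NFKB2 at 26.3 and RELB at 22.04.

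**Figure D2:**
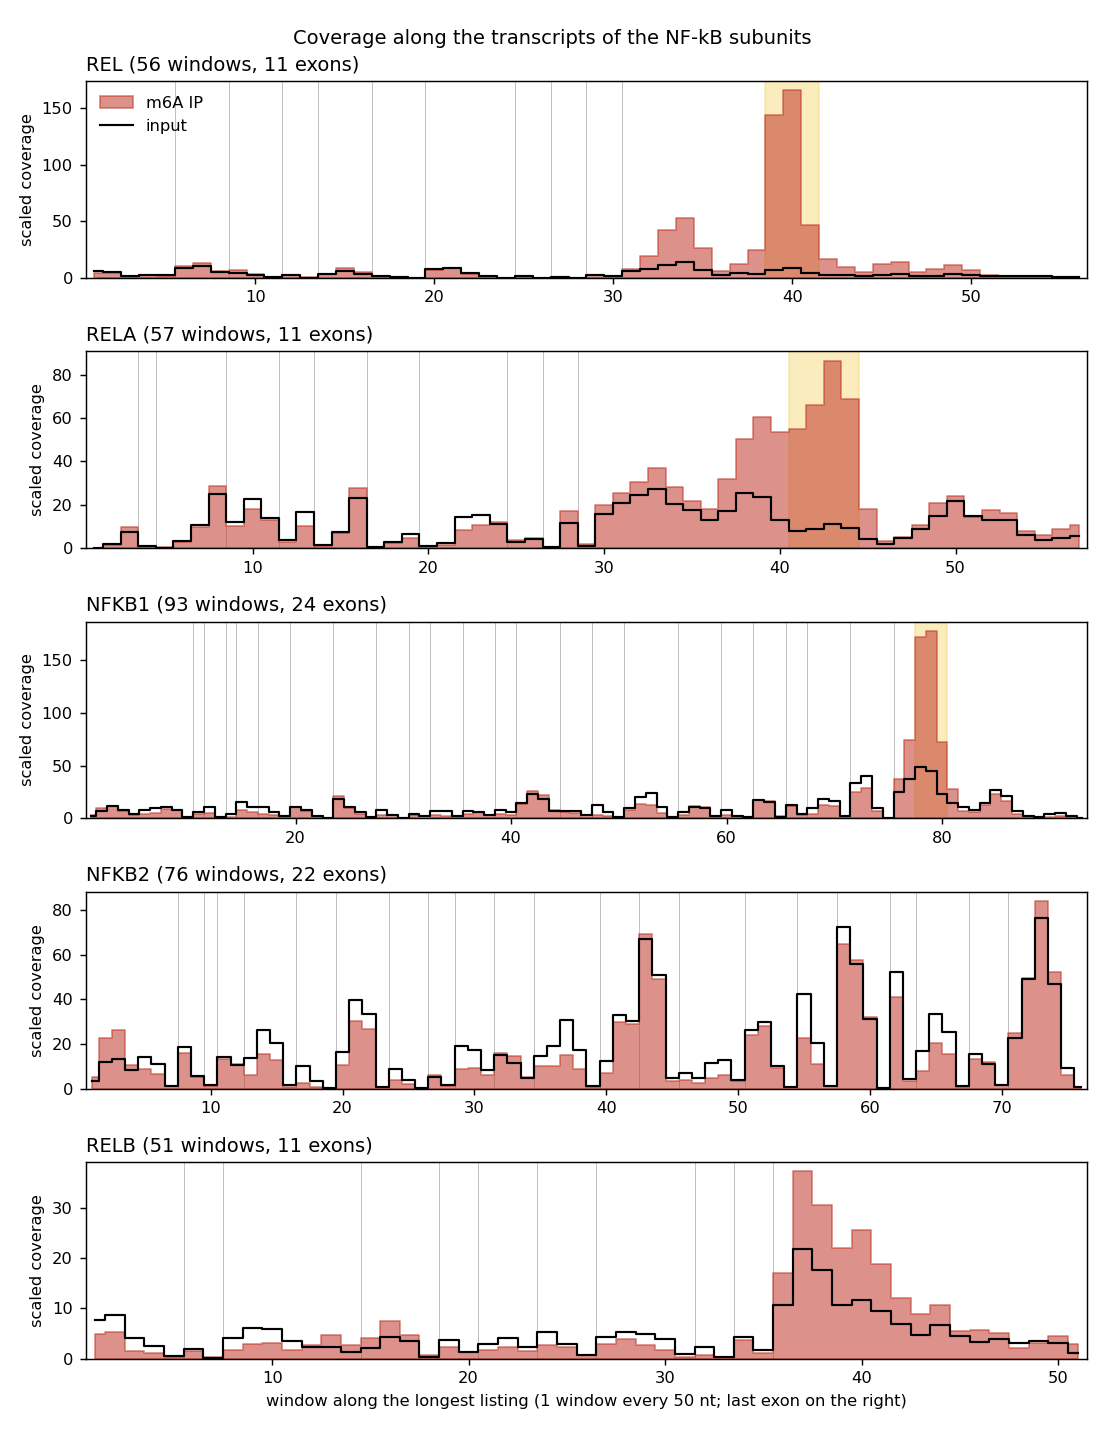
Scaled coverage (vertical) of the input (black line) and the IP (red) along the longest listing of each subunit, 1 window every 50 nt (horizontal), with exon borders in grey and enriched regions shaded yellow. RELA is turned so that its last exon is on the right. The regions of REL, RELA and NFKB1 lie in the last exon, where the IP reaches 165, 86.5 and 178. In the last exon of NFKB2 the IP follows its input.

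Exons in the table are numbered along the chromosome, which the strands in the RefSeq promoter table made visible. Among measured genes of more than 1 exon the last-numbered exon was the longer terminal exon in 91.2% of 3427 plus-strand genes, and the first-numbered one in 90.5% of 3187 minus-strand genes. NFKB1, NFKB2 and REL are listed on the plus strand and RELA on the minus strand. Exon 1 of RELA in the table is therefore treated as its last exon. RELB was not among the listed promoters, and its longer terminal exon, the last-numbered, is taken as the last. No coordinates come with the windows, so a region cannot be assigned here to coding sequence or untranslated region.

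REL carried the steepest rise. In exon 11, its last exon of 26 windows, the input of windows 8 to 12 was 3.45, 7.07, 8.68, 3.85 and 2.68. The IP of the same windows was 24.8, 144, 165, 46.8 and 16.3. The IP rose sharply at window 9. The input also rose there, from 3.45 to 7.07, and stayed below the 13.6 it had at window 4. Windows 9 to 11 formed the region. Their mean input was 6.53, against 3.36 in the remaining windows of the gene. Their mean IP was 119, an 18.2-fold ratio of IP to input, against 2.16-fold in the remaining windows. These 3 windows, 5.36% of the listing, held 48.1% of REL's IP coverage and 9.93% of its input coverage. The best pair of windows rested on approximately 192 input reads and 2396 IP reads.

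REL showed further elevated windows on both sides of the region. Windows 3, 4 and 5 of the same exon scored 1.19, 1.28 and 1.24, and window 4 had an IP of 53.1. Windows 15 and 16 scored 1.23 and 1.21. Altogether 11 of the 26 windows of the last exon scored 1 or more. Outside it all 30 windows lay below 0, with a highest score of -0.14. These scores are relative to REL's gene medians, 2.65 for input and 4.59 for IP. The ratio of IP to input outside the last exon was 1.03, so the negative scores are not a measure of depletion. The region peak at window 9 was centred 450 nt from the inner edge of the exon, the edge that adjoins the preceding exon.

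RELA had a broader and lower region. In the exon of 29 windows that is its last, windows 14 to 17 had an input of 9.41, 10.9, 8.70 and 8.08 and an IP of 68.7, 86.5, 66.0 and 54.7. The window before the region scored 1.64 and the window after it 1.72. The region had a 7.44-fold ratio of IP to input against 1.35-fold in the rest of the gene. It held 26.9% of the IP and 6.24% of the input coverage. Input inside the region (mean 9.28) was close to that of the other windows (10.5).

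The place of the RELA region depended on the listing. RELA has 4 listings, whose last exons have 19, 24, 29 and 29 windows. The peak was window 15 in each of them and the gene-level score was 2.56 in all 4. The same windows and the same gene medians enter each listing there, so this sameness is no independent check. Measured from the inner edge, the centre of the peak lay at 200 nt in the shortest version. It lay at 450 nt in the middle one and 700 nt in the longest, each to within 50 nt. In the longest version windows 20 to 28 had an input between 13.1 and 27.4.

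NFKB1 combined a narrow region with a high input in the same windows. In exon 24, its last, windows 2 to 6 had an input of 37.6, 49.0, 44.6, 22.8 and 14.8. The IP was 74.4, 172, 178, 72.3 and 27.9. Windows 3 to 5 formed the region, at a mean IP of 141 and a mean input of 38.8. The mean input elsewhere in the gene was 9.13, so the input itself was elevated at this place, and the ratio in the region was 3.63-fold against 0.850-fold elsewhere. The region held 37.7% of the IP and 12.4% of the input coverage in 3.23% of the windows.

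The call in NFKB1 turned on the gene medians. The gene median was 7.60 for input and 4.40 for IP, and without this centring the gene-level score fell from 2.55 to 1.88. The peak was centred 200 nt from the inner edge of the exon. From window 7 onward the score stayed between -0.36 and 0.49, although input at window 10 was again 26.6 and IP 23.4. At the other end of the transcript, windows 1 and 2 of exon 1 scored 1.30 and 1.01 with an input of 1.70 and 7.36 and an IP of 3.17 and 9.52.

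**Figure D3:**
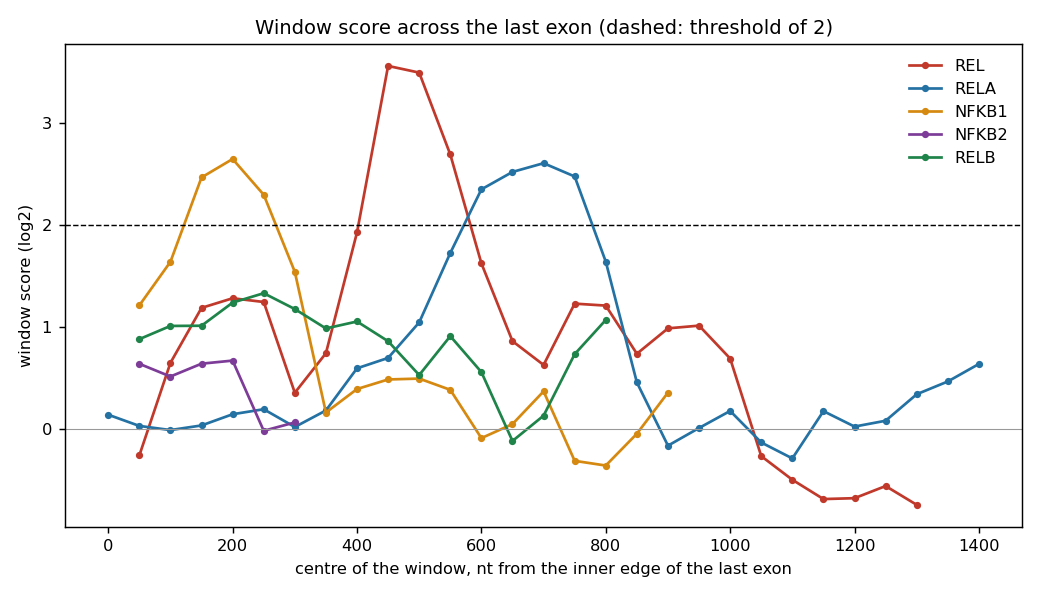
Window score (log2, vertical) against the distance of the window centre from the inner edge of the last exon (nt, horizontal) for the 5 subunits in their longest listing, with the threshold of 2 dashed. The curves of NFKB1, REL and RELA peak above it at 200, 450 and 700 nt, RELB stays near 1 over its first windows and NFKB2 stays at 0.67 or lower.

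NFKB2 was the most abundant subunit in the input and showed little local enrichment. In exon 22, its last, the input of the 6 windows was 22.7, 49.4, 76.8, 46.8, 9.11 and 0.896. The IP was 24.9, 49.6, 84.2, 52.4, 6.02 and 0.393, nearly the same profile, and the highest score there was 0.67. This last exon is short, with 6 windows against 16 to 29 in the other members. The whole transcript had approximately 10989 input and 5923 IP reads.

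The highest scores of NFKB2 lay at its beginning. Windows 2 and 3 of exon 1 had an input of 11.7 and 13.3 and an IP of 22.5 and 26.3, with scores of 1.39 and 1.44. This pair rested on approximately 304 input and 378 IP reads. Window 4 scored 0.85, and windows 5 and 6 scored -0.11 and -0.13. The 4 listings differ in their first exon. A listing with a first exon of 3 windows also had its best pair there, with a gene-level score of 1.42. The remaining listings scored 0.80 and 0.74, and their first exons had a mean input of 0.713 and 1.56, below the 8.99 and 9.02 of the listings with the higher scores.

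RELB had a wide, low rise instead of a peak. In exon 11, its last, the input of windows 1 to 6 was 10.8, 21.7, 17.7, 10.7, 11.7 and 9.49. The IP was 17.1, 37.2, 30.4, 21.9, 25.6 and 18.8, higher than the input in each of these windows. Scores of windows 1 to 9 lay between 0.86 and 1.33, and 7 of the 16 windows reached 1. A second place with raised scores spanned the end of exon 3 and the start of exon 4, where window 6 of exon 3 scored 1.004 and window 1 of exon 4 scored 0.99, at an input of 2.40 and 2.05. RELB had the fewest reads of the 5 in the IP, approximately 1525, and 1915 in the input.

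At a lower threshold the family no longer splits. With a score of 1 all 5 genes had a run of at least 2 windows, as had 71.4% of all measured genes and 85.0% of those of 51 to 93 windows.

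The last exon was compared with all other exons of the same gene, a measure that does not depend on the gene median or on the threshold. In REL the ratio of IP to input was 6.23 in the last exon (exact binomial 95% interval 5.77 to 6.73) and 1.03 elsewhere (0.914 to 1.15). RELA had 2.20 (2.10 to 2.31) against 0.940 (0.871 to 1.01) and NFKB1 2.16 (2.04 to 2.27) against 0.752 (0.717 to 0.789). RELB, which had no region, still had 1.72 (1.58 to 1.88) against 0.740 (0.659 to 0.831). In NFKB2 the values were 1.06 (0.979 to 1.14) and 0.809 (0.781 to 0.838).

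In all 5 members the last exon was higher and the intervals did not overlap. This was so for 71.4% of 6602 measured genes of known strand when the ratios alone are compared, so the direction is common. The last exon exceeded the rest 6.08 times in REL, 2.87 times in NFKB1, 2.34 times in RELA, 2.33 times in RELB and 1.31 times in NFKB2. Over the 6602 genes the median was 1.54 and the middle 50% of genes lay between 0.932 and 3.14, a range that REL exceeded. The last exon held 87.0% of REL's IP coverage against 52.4% of its input coverage. Outside the last exon the 5 genes had ratios of 0.740 to 1.03, around the median of 0.944 over all these genes.

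**Figure D4:**
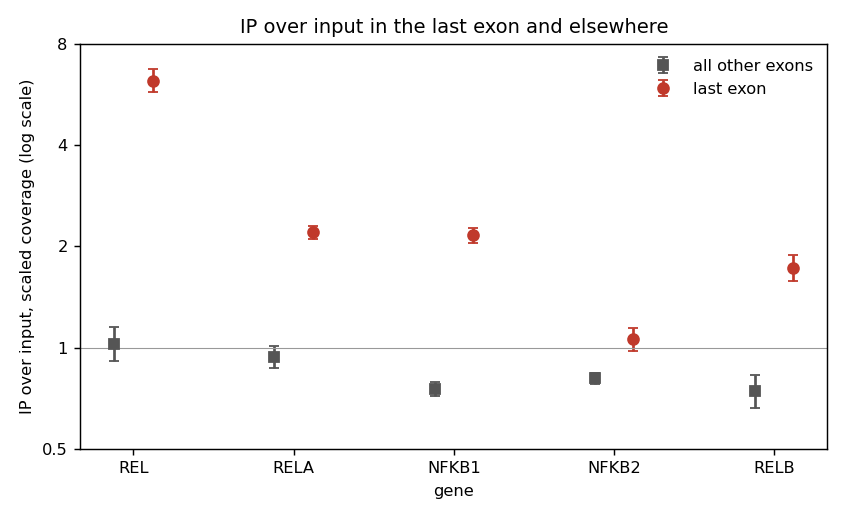
Ratio of IP to input in scaled coverage (vertical, log scale) in the last exon (red circles) and over all other exons (grey squares) of each subunit, with exact binomial 95% intervals for counting error. The other exons lie between 0.740 and 1.03 in all 5 genes, and the last exons range from 1.06 in NFKB2 to 6.23 in REL.

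Internal exons of the family held no enriched window. The 69 internal exons of the 5 genes have at most 7 windows each, and 0 of their 208 windows scored 2 or more, with a highest score of 1.004 in RELB. In all measured genes, 0.199% of windows in internal exons of up to 7 windows scored 2 or more. The count of 0 lies near this share and is no result about the family. The share over all windows of measured genes was 5.75%, and the 5 genes together had 10 of 333 windows, all in last exons. At a score of 1 or more the share was 13.4%, and the 5 genes had 36 of 333 windows. Of 5189 peaks in measured genes of known strand 68.5% lay in the last exon. Where that exon had at least 16 windows, peaks were centred at a median of 500 nt from its inner edge (middle 50% of peaks 300 to 1000 nt). Of the members, REL at 450 nt lay inside that range and NFKB1 at 200 nt below it. RELA lay inside it at 700 nt and 450 nt in 3 of its listings and below it at 200 nt in the listing with the shortest last exon.

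The genes around the subunits in the pathway were grouped by role. Of 62 measured genes in 5 role lists, 39 (62.9%) had a region, beside 44.2% of all measured genes, and their transcripts had a median of 65 windows against 55. The score is a maximum over windows and the lists differ in length, so each count below stands beside the list's median length, to be read against 44.2% of all measured genes and 55.3% of those of 51 to 93 windows. The part of length in the counts was not tested. Scores are also centred on the gene median, so a transcript raised along its whole length can lack a region. A gene without a region is therefore not shown to lack m6A. Of the IkB proteins and feedback inhibitors, 3 of 11 carried a region (27.3%, median length 46 windows), and the list's median score was 1.33. Many of these hold NF-kB in the cytoplasm or shut the signal down, though not all IkB proteins act as inhibitors. TNFAIP3, the ubiquitin-editing inhibitor A20, scored 4.36 (over its best pair of windows, input 22.7, IP 684) and NFKBIE, which encodes the inhibitor IkB epsilon, 4.18. NFKBIA, which encodes the inhibitor IkB alpha, was lowest at 0.66, at an input of 19.4 and an IP of 45.1.

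Of the activating kinases and their partners 7 of 10 carried a region (70.0%, median length 80 windows), and the median score was 3.10. TAB1, a partner of the kinase TAK1, scored 5.50 and IKBKB, the kinase that phosphorylates IkB proteins in the canonical pathway, 4.36. TBK1, an IKK-related kinase, was lowest at 1.06. Of the adaptors and ubiquitin ligases 12 of 14 measured genes had a region (85.7%, median length 83.5 windows), with a median score of 3.24. TRAF5 scored 5.72 and BIRC3 5.32, while RNF31, the catalytic ligase of the linear ubiquitin assembly complex, had 0.94. These lists thus held both the highest scores of the pathway and transcripts without a region.

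Of the upstream receptors 6 of 9 measured genes had a region (66.7%, median length 49 windows), with a median score of 2.80. TNFRSF1B, a receptor for tumour necrosis factor, scored 4.31 and TNFRSF13C, the BAFF receptor, 3.84, while TNFRSF17, the receptor BCMA, had 1.16. Of the target genes 11 of 18 had a region (61.1%, median length 52.5 windows), with a median score of 2.59. The scores included BCL2L1, which encodes the survival factor BCL-XL, at 5.05, ICAM1 at 4.84 and the chemokine gene CCL3 at 0.37. The highest score of the subunits, 3.52, lay below the highest of each list. The lists hold 9 to 18 measured genes against 5 subunits, and a maximum tends to rise with the number of genes. The subunits' median of 2.55 lay within the range of the list medians, 1.33 to 3.24. No list was tested against another.

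**Figure D5:**
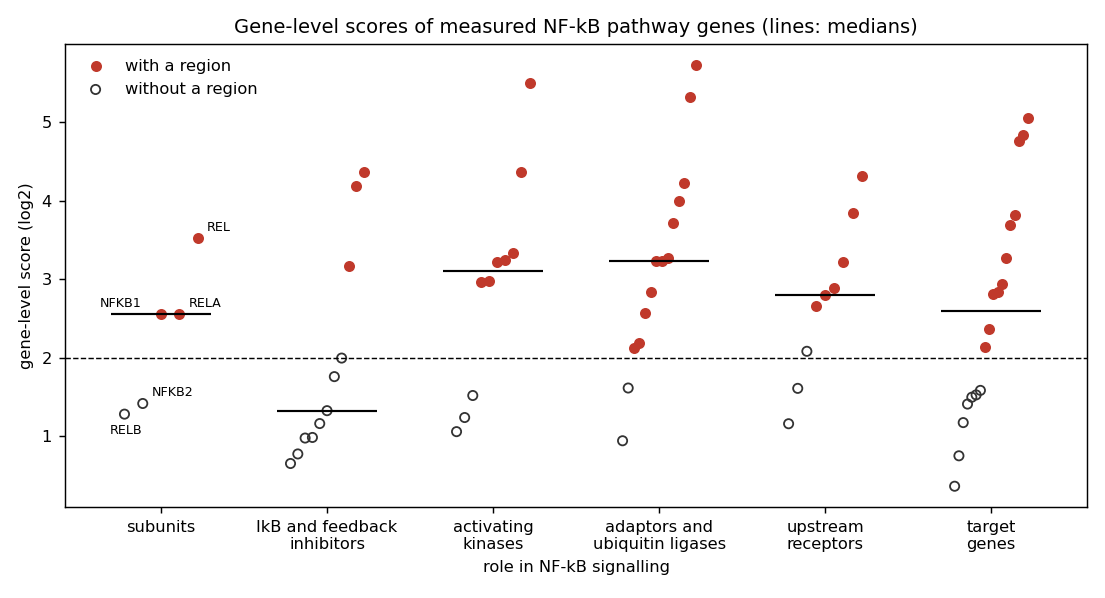
Gene-level score (log2, vertical) of each measured gene by its role in NF-kB signalling (horizontal), filled where the gene had a region and open where it had none, with list medians as lines and a score of 2 dashed. The subunits lie between 1.28 and 3.52. The list medians run from 1.33 for the IkB proteins and feedback inhibitors (median length 46 windows) to 3.24 for the adaptors and ligases (83.5 windows).

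The measured genes most like each subunit were found from the input level, the ratio of IP to input and the gene-level score, each in units of its SD over measured genes, so that only 2 libraries stand behind the likeness. RFX5 (distance 0.0261) and MLLT6 (0.0599) were nearest to NFKB1, RNH1 (0.0344) and SCAMP2 (0.0807) to NFKB2, and PSMB9 (0.0449) and SNRPE (0.0760) to RELB. KRI1 (0.0671) and BIVM-ERCC5 (0.0846) were nearest to REL, and RP11-423H2.1 (0.0896) and RNF187 (0.0932) to RELA. For example, RFX5 had an input of 10.4, a ratio of 1.201 and a score of 2.54, beside 10.1, 1.19 and 2.55 in NFKB1.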

How the data were processed

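Per the submitters' processing notes, reads were aligned with TopHat 1.1.3 and the build was hg19; the libraries were strand-specific per the labels' protocols. For the annotation and the coverage program the sources used here give no name. The table deposited by the authors gives, per the file headers, the coverage signal of each library in windows, its median per gene and a log2 window score. Each library carries its own scaling, whose factor is unknown here. All values above 0 were whole multiples of 1 step per library (100% within 0.01 step), so that a scaled coverage of 1 stands for a depth of 5.84 reads (input) or 3.71 reads (IP). Reads of 36 nt in windows of 100 nt every 50 nt then gave read numbers, approximately 51.7 M and 58.5 M in all over the longest listings. Medians and scores were recomputed and differed from the deposited ones in 0 cases by more than 1e-09.

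The listing with most windows was used per gene name, the first on ties. Tools were scipy 1.17.1, pandas 2.3.3, numpy 2.4.6 and matplotlib 3.10.9 under Python 3.11.15. Simulated data were used to test the finding of regions. Both simulated libraries were drawn from the input profile, so they do not measure false calls in the real IP. No result above rests on them. Named were all subunits, the 2 highest and the lowest measured member of each role list, and the 2 nearest genes of each subunit. Members, lists and thresholds were chosen with earlier results of these data known. Alternatives were other added numbers, centring, thresholds, run lengths, averaging and listings. Intervals cover counting error only. PCR copies are not independent molecules, so where copies are present the intervals are too narrow, also for the orders read from them.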

Additional observations from a re-analysis of the deposited data

How the results depend on the processing

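The count of subunits with a region was 5 at a score threshold of 1, 1 (REL) at a threshold of 3 and 1 (RELA) for runs of at least 4 windows. It was 2 without centring, when NFKB1 dropped out, and 3 under the other alternatives tried. The share of all measured genes with a region was 44.2% in the main setting and 45.49% without centring. This share also rose at a threshold of 1, to 71.4%. It fell at a threshold of 3, to 26.01%, and for runs of at least 4 windows, to 30.95%. Where the count of subunits stayed at 3, the share still moved. It was 51.78% with 0.1 added before the logarithm, 33.92% with 5 added and 47.97% for runs of at least 1 window. The pathway count of 39 fell to 25 at a threshold of 3 and stayed within 1.5 times under the others. Without centring the gene-level scores were 1.88 in NFKB1, 0.91 in NFKB2, 4.14 in REL and 2.83 in RELA. With 5 added before the logarithm they were 2.22 in NFKB1, 2.25 in RELA and 0.96 in RELB, and over 4 windows 2.26 in NFKB1 and 2.92 in REL. The lowest score of NFKB2 in another listing was 0.74. REL had the highest score of the 5 in all 7 settings compared on the longest listing. As a median over windows the input level was 12.6 in NFKB2, 9.41 in RELA, 7.60 in NFKB1, 3.63 in RELB and 2.65 in REL. This is the same order as the means. Over all listings RELA stood at 10.07 and NFKB1 at 10.09, the reverse of their order on the longest listing. By construction a shorter required run cannot lower the count of subunits and a longer one cannot raise it. For runs of at least 1 window the count stayed at 3. Causes of the other changes were not tested. Among the 5 genes RELB had the fewest IP reads and REL the fewest input reads. No paired analysis was possible because each group has 1 library.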
